A study of Rattus norvegicus with 32 samples.

Results

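Genes of the unfolded protein response and the integrated stress response were followed in liver sinusoidal endothelial cells (LSECs), the fenestrated cells that line the liver's capillaries, of rats with liver injury of increasing length. The 10 genes were chosen by symbol as well-known members of these pathways, and each symbol matched 1 of the 32623 genes in the deposited tables. These genes and the lists below were chosen with earlier results of these data known. RNA from 32 LSEC preparations was sequenced. Of these, 22 came from male Wistar Han rats: 6 untreated (healthy) rats, 5 after 2 weeks of inhaled carbon tetrachloride (CCl4, a hepatotoxin; acute injury), 5 after 6 weeks (fibrosis) and 6 with cirrhosis after 12 to 14 weeks, a duration given for the series and not in the labels of these libraries. Phenobarbital was added to the drinking water in the CCl4 model; whether the healthy rats drank it too is not stated. The other 10 came from a thioacetamide (TAA) experiment, with 5 libraries labelled control and 5 labelled TAA control. The labels do not settle which of these groups received TAA, a second hepatotoxin, and they name Wistar Han where the series description names Sprague-Dawley rats, so their difference is given only as labelled. In both the CCl4 and the TAA model, the paper states, LSECs were isolated some days after the last toxicant dose, to lessen acute inflammatory gene expression. Ages are not given in the sources used here.

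A cell senses unfolded proteins in the endoplasmic reticulum (ER) through IRE1 (Ern1), ATF6 and PERK (Eif2ak3). IRE1 splices the messenger of Xbp1, and XBP1 and cleaved ATF6 induce chaperones and the machinery that removes misfolded proteins from the ER. PERK shares its target, the translation factor eIF2alpha, with the kinases GCN2 (Eif2ak4, sensing amino acid shortage), PKR (Eif2ak2, double-stranded RNA) and HRI (Eif2ak1, heme shortage). Phosphorylated eIF2alpha lowers protein synthesis overall but raises translation of ATF4, which induces genes of amino acid supply; this branch is called the integrated stress response (ISR). Both IRE1 and PERK signalling begin after transcription, so gene-level counts show neither Xbp1 splicing nor ATF4 protein. LSECs take up waste macromolecules by endocytosis and secrete many proteins.

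Promoter sequences show which members share known response elements. Windows of 300 bases, from 250 before the transcription start to 50 after it, were read from RefSeq promoters of the assembly GRCr8, which is a later build than the Rnor_6.0 to which the reads were mapped. All 10 members had a window. The ER stress element (ERSE), to which ATF6 and NF-Y bind, was searched as CCAAT and CCACG 9 bases apart, ERSE-II as ATTGG and CCACG 1 base apart, and the C/EBP-ATF response element (CARE), bound by ATF4, as TGATGNAA, each on both strands. ERSE occurred in 22 of 33469 rat promoter windows (0.0657%), ERSE-II in 17 (0.0508%) and CARE in 1332 (3.98%). The windows of the chaperones Hspa5 (1 site) and Hsp90b1 (2 sites) and of Xbp1 held ERSE, and that of Herpud1 held ERSE-II and CARE, which did not overlap. Trib3 and Chac1 held CARE. None of these letters was found in the windows of Dnajb9, Atf4, Ddit3 and Asns. Only exact letters inside the windows were searched, so variant sites and sites elsewhere are missed, and a window without a match may still hold an element. The matched stretches are shown with 30 flanking bases where the window allows; capitals mark the motif in either orientation.
Hspa5, GRCr8 chr3:38452943-38453015, + strand, bases -73 to -1 from the start: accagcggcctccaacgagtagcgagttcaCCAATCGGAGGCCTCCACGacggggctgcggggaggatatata
Hsp90b1, chr7:23012317-23012499, - strand, bases -206 to -24: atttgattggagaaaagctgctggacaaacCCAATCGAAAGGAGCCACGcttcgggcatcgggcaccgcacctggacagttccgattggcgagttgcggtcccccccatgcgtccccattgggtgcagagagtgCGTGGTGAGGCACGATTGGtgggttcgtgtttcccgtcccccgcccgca
Xbp1, chr14:84604528-84604606, + strand, bases -95 to -17: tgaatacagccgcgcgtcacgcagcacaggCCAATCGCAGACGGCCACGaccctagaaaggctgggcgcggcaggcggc
Herpud1, chr19:10614791-10614921, - strand, bases -214 to -84: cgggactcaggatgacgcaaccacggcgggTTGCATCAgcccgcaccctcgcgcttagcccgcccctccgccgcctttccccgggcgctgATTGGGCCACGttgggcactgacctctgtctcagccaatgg
Trib3, chr3:161275534-161275584, - strand, bases -51 to -1: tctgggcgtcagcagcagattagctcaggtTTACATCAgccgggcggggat
Chac1, chr3:126795934-126796001, + strand, bases -197 to -130: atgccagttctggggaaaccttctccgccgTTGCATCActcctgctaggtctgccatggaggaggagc
Hspa5, Hsp90b1 and Xbp1 thus share an element, and so do Trib3, Chac1 and Herpud1. As the values below show, genes that share one did not all move the same way.

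Levels are given as CPM (a gene's counts relative to the library total after TMM scaling), set over the 22 CCl4-model libraries and separately over the 10 TAA-experiment libraries, so that levels are not compared between the experiments, nor between genes. A gene was called higher or lower where limma-voom gave a change of more than 1.5-fold together with p below 0.05 before adjustment. The p-values printed are those adjusted over all genes tested. Libraries held 25646531 to 46464289 counts. All 10 members passed the low-count filter in every comparison. The expected count of Ddit3 was not a whole number in any of the 32 libraries. In GRCr8 Ddit3 overlaps Mars1, the gene of methionyl-tRNA synthetase, and its level is therefore less certain than that of the 8 members that had whole counts in all 32 libraries; Dnajb9 had counts that were not whole in 4.

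The state of the cells differed between the groups well beyond these genes. The summed level of 9 LSEC markers (Stab1, Stab2, Kdr, Mrc1, Fcgr2b, Lyve1, Cdh5, Tek and Clec4g) was 13843 to 28014 CPM in healthy libraries, 3841 to 4616 in acute injury, 2722 to 3597 in fibrosis and 15297 to 19717 in cirrhosis, with every marker above 0 in every library. The members of this list did not all move together. In acute injury 7 of the 9 were called lower, in fibrosis 8, and in cirrhosis 1 was lower and 1 higher. Over all genes tested 38.3%, 35.4% and 25.7% were called lower at these stages, and 35.8%, 35.8% and 28.8% higher, so calls were common. Cdh5, the endothelial cadherin, averaged 1293, 1597, 1040 and 1506 CPM from healthy LSECs to cirrhosis and was called at no stage. Lyve1 (log2 fold-change -0.49, adjusted p = 0.19) was not called in acute injury. The summed level of 13 immediate-early and dissociation-related genes (Fos, Jun, Egr1, Hspa1a or Hspa1b and others) was 47164 to 79892 CPM in healthy libraries, 1408 to 4192 in acute injury, 3267 to 5094 in fibrosis and 24839 to 47327 in cirrhosis. Neither sum overlapped between healthy LSECs and acute injury or fibrosis. The sum of 8 hepatocyte markers ran from 733 to 17618 CPM in healthy libraries, 87.1 to 778 in acute injury, 1012 to 4234 in fibrosis and 1657 to 11106 in cirrhosis. The sums of 8 macrophage markers were 283 to 2666, 65.9 to 201, 28.8 to 176 and 675 to 2465 CPM in the same order, and those of 8 stellate cell and fibroblast markers 165 to 604, 9.04 to 31.7, 38.1 to 176 and 488 to 1701 CPM. Members of this last list went both ways in fibrosis, with 3 called higher (Acta2 4.49, Col1a1 2.28 and Dcn 1.16 on the log2 scale) and 3 lower, among them Col3a1, which averaged 223 CPM in healthy and 22.8 in fibrosis libraries. In acute injury 6 of 8 were lower and in cirrhosis 7 higher, beside the shares over all genes given above. The part of these shifts in the results that follow was not tested, and in bulk RNA fewer cells of a type and less RNA per cell cannot be told apart. The sums of 5 neutrophil, 6 lymphocyte and 5 cholangiocyte markers were at most 172 CPM in any library.

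In acute injury Asns, the asparagine synthetase gene, showed the widest change of the 10 members. It rose 23.8-fold, Trib3 rose 3.3-fold and Chac1 2.09-fold, the chaperone Hsp90b1 rose 2.99-fold, and Xbp1 and Herpud1 fell. The levels of Atf4 and Ddit3, the factors that are usually placed above these genes, were not called. Of the 10 members, 4 were called higher and 2 lower; over all 14317 genes tested 74.1% were called, 35.8% higher and 38.3% lower, so that a call by itself was the common outcome. The median log2 fold-change of the members was 0.27, against -0.09 over all genes.

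In fibrosis Asns rose 16-fold, Trib3 3.59-fold, Hsp90b1 2.93-fold, Dnajb9 2.25-fold and Chac1 2.06-fold, and Xbp1 and Herpud1 fell. That makes 5 members higher and 2 lower, where 71.2% of 14538 genes were called, 35.8% higher and 35.4% lower. The members' median log2 fold-change was 0.44, against -0.03 over all genes.

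In cirrhosis the ER chaperones Hspa5 and Hsp90b1 rose 2.13-fold and 3.94-fold, whereas Trib3 and Chac1 fell and Asns did not pass the test. Thus 2 members were higher and 2 lower, where 54.5% of 14789 genes were called, 28.8% higher and 25.7% lower. The members' median log2 fold-change was 0.01, against 0.07 over all genes. The comparisons of acute injury, fibrosis and cirrhosis share the 6 healthy libraries and are not independent of each other.

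**Figure D1:**
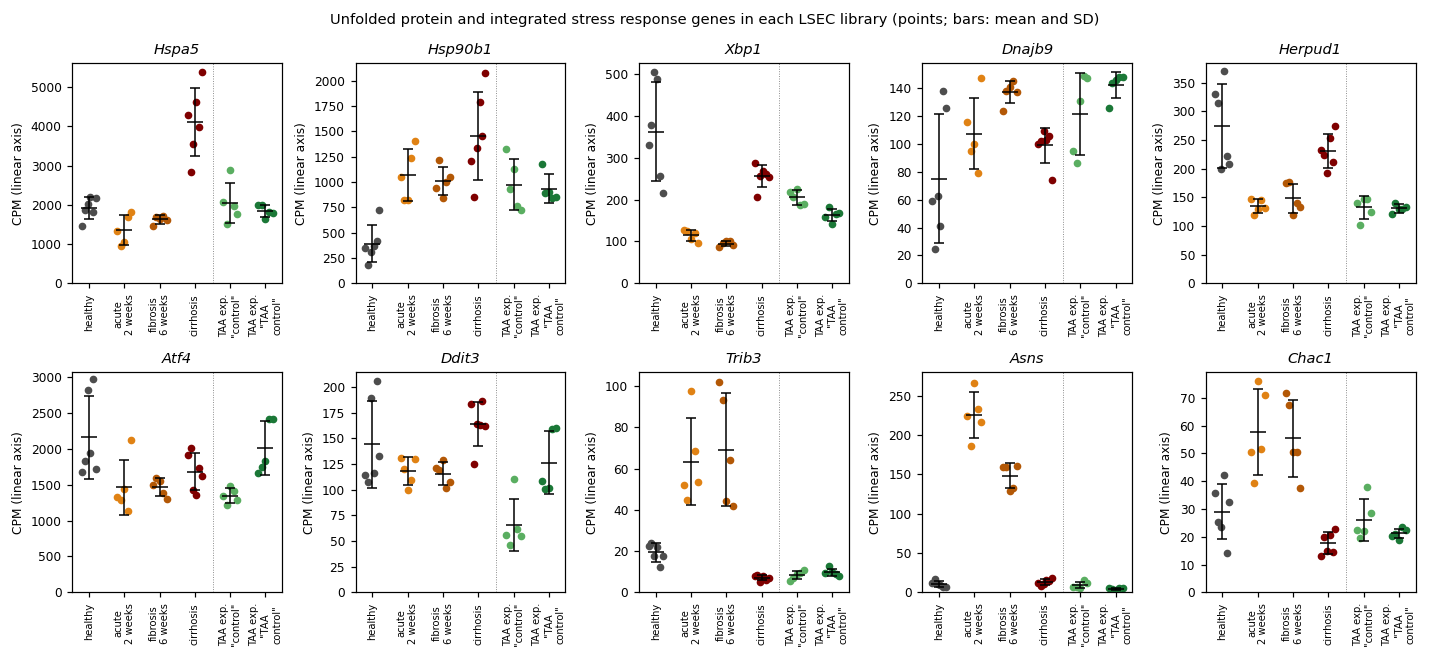
CPM of each of the 10 genes (y axis, linear, from 0) in every library (points) of the 6 groups (x axis), with the group mean and SD as black bars; the dotted line separates the CCl4 model from the TAA experiment, whose CPM scales were set separately. Asns, Trib3 and Chac1 stand high in acute injury and fibrosis, and Hspa5 in cirrhosis, where its lowest library was at 2840 CPM and the highest healthy one at 2211.

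Among the ER chaperones, Hspa5 encodes BiP, the main chaperone of the ER lumen, which also holds the stress sensors inactive. Its level was 1450 CPM in the lowest, 1947 in the median and 2211 in the highest healthy library. In acute injury the 5 libraries were at 1328, 950, 1043, 1688 and 1825 CPM, and in fibrosis at 1449, 1694, 1641, 1722 and 1623. These ranges overlapped with the healthy one, and the log2 fold-changes of -0.49 ± 0.199 (SE; adjusted p = 0.0374) in acute injury and -0.17 ± 0.132 (adjusted p = 0.27) in fibrosis stayed under the fold-change threshold. The 6 cirrhotic libraries spanned 2840 to 5390 CPM, with a median of 4136. All of them were above every other CCl4-model library, and Hspa5 rose by 1.09 ± 0.165 on the log2 scale against healthy LSECs (adjusted p = 0.000238).

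Hsp90b1 encodes GRP94, the HSP90 protein of the ER, which folds integrins and toll-like receptors. It was at 178 CPM in the lowest, 356 in the median and 727 in the highest healthy library. It rose to 1054, 825, 824, 1240 and 1406 CPM in acute injury, 939, 1221, 841, 995 and 1052 in fibrosis, and 851 to 2079 (median 1397) in cirrhosis. No library of the injured groups was as low as the highest healthy library. The log2 fold-changes were 1.58 ± 0.302 in acute injury (adjusted p = 0.000423), 1.55 ± 0.283 in fibrosis (adjusted p = 0.000343) and 1.98 ± 0.286 in cirrhosis (adjusted p = 0.000188). Hsp90b1 was called higher in all 3 injured groups, and Hspa5, whose window holds the same element, only in cirrhosis among these 3 tests.

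Dnajb9 encodes ERdj4, a BiP co-chaperone that restrains IRE1 and helps degradation of misfolded proteins. It varied widely among healthy rats, from 24.9 CPM in the lowest library through a median of 60.6 to 138 in the highest. The fibrosis libraries were at 124, 138, 141, 145 and 137 CPM and the acute ones at 116, 95.3, 100, 79 and 147. Dnajb9 rose in fibrosis by 1.17 ± 0.374 on the log2 scale (adjusted p = 0.0133), although the ranges overlapped. The differences of 0.76 ± 0.391 in acute injury (adjusted p = 0.0933) and 0.64 ± 0.343 in cirrhosis (74 to 109 CPM; adjusted p = 0.127) did not pass. Both passed when healthy replicate 5, at 138 CPM, was left out (0.964 and 0.845), and when healthy replicate 6, at 126 CPM, was left out (1.052 and 0.824). They also passed with 1 fit over the 4 CCl4 groups (0.729 and 0.628), and the difference in acute injury passed with no low-count filter (0.866).

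Xbp1 encodes the transcription factor of the IRE1 branch. It was at 215 CPM in the lowest, 353 in the median and 505 in the highest healthy library. The acute libraries were at 127, 125, 105, 121 and 95.8 CPM and the fibrosis libraries at 85.9, 95.3, 99.8, 102 and 91.6. All 10 lay below the lowest healthy library, and Xbp1 fell by 1.56 on the log2 scale in acute injury (SE 0.219, adjusted p = 3.59e-05) and by 1.80 in fibrosis (SE 0.214, adjusted p = 1.11e-05). In cirrhosis it was at 207 to 288 CPM (median 258), within the spread of healthy rats except for 1 library (log2 fold-change -0.43 ± 0.216, adjusted p = 0.101).

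Herpud1 encodes HERP, an ER membrane protein that organises ER-associated degradation. It was at 200 CPM in the lowest, 268 in the median and 371 in the highest healthy library. The acute libraries were at 148, 119, 129, 146 and 131 CPM and the fibrosis libraries at 175, 176, 120, 140 and 133. None reached the lowest healthy library. Herpud1 fell by 0.95 on the log2 scale in acute injury (SE 0.192, adjusted p = 0.000623) and by 0.79 in fibrosis (SE 0.201, adjusted p = 0.00346). Both calls were lost with library size in place of TMM (-0.541 and -0.393). In cirrhosis, at 192 to 274 CPM, the log2 difference was -0.20 ± 0.185 (adjusted p = 0.362).

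Of the ISR factors, Atf4 was at 1671 CPM in the lowest, 1887 in the median and 2971 in the highest healthy library, and healthy replicates 3 and 5 stood above the other 4. It was at 1329, 1289, 1446, 1127 and 2116 CPM in acute injury, 1500, 1597, 1556, 1377 and 1297 in fibrosis and 1360 to 2009 in cirrhosis. All fibrosis libraries lay below the lowest healthy one. The log2 fold-changes of -0.52 ± 0.206 (adjusted p = 0.0342), -0.46 ± 0.165 (adjusted p = 0.024) and -0.33 ± 0.182 (adjusted p = 0.133) were all under the 1.5-fold threshold. Without acute replicate 8, at 2116 CPM, the fall in acute injury passed it (-0.659), as did that of Hspa5 (-0.603). Ddit3 encodes CHOP, a factor that acts downstream of ATF4 and is linked to cell death. It was at 107 CPM in the lowest, 124 in the median and 206 in the highest healthy library, 100 to 131 in acute injury, 102 to 129 in fibrosis and 125 to 186 in cirrhosis. All these ranges overlapped, and the 95% intervals of its log2 fold-change were -0.62 to 0.19 in acute injury, -0.60 to 0.18 in fibrosis and -0.16 to 0.62 in cirrhosis.

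Asns, Trib3 and Chac1 are known targets of ATF4, and their levels did not follow that of Atf4. Asns encodes asparagine synthetase. It was at 6.51 CPM in the lowest, 10 in the median and 16.8 in the highest healthy library. The acute libraries were at 224, 186, 267, 233 and 217 CPM and the fibrosis libraries at 160, 159, 129, 133 and 161. The lowest of these 10 libraries thus stood far above the highest healthy one. The log2 fold-change was 4.57 ± 0.228 in acute injury (adjusted p = 7.83e-09), and its 95% interval in fibrosis was 3.52 to 4.48 (SE 0.219, adjusted p = 1.91e-08). In cirrhosis Asns was at 7.62 to 18.5 CPM (median 13.2), a range that overlapped with that of healthy rats (0.41 ± 0.271, 95% interval -0.18 to 0.99, adjusted p = 0.214).

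Trib3 encodes a pseudokinase that binds ATF4 and dampens its activity. It was at 12.2 CPM in the lowest, 19.9 in the median and 24.1 in the highest healthy library. The acute libraries were at 51.9, 44.7, 97.7, 68.5 and 53.5 CPM and the fibrosis libraries at 102, 93.2, 44.5, 64 and 42.1. Both groups lay above all healthy libraries, with log2 fold-changes of 1.72 ± 0.242 (adjusted p = 3.69e-05) and 1.85 ± 0.275 (adjusted p = 7.13e-05). The cirrhotic libraries, at 5.23 to 8.2 CPM (median 7.49), lay below all healthy ones, and Trib3 fell by 1.42 on the log2 scale (SE 0.204, adjusted p = 0.000184).

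Chac1 encodes an enzyme that degrades glutathione. It was at 14.3 CPM in the lowest, 29 in the median and 42.4 in the highest healthy library. The acute libraries were at 50.4, 39.5, 76.1, 51.6 and 71.1 CPM and the fibrosis libraries at 71.6, 67.3, 50.4, 50.5 and 37.6. Only the lowest library of each group fell within the healthy range, and the log2 fold-changes were 1.06 ± 0.28 (adjusted p = 0.00401) and 1.04 ± 0.274 (adjusted p = 0.00422). In cirrhosis (13.1 to 22.9 CPM) Chac1 fell by 0.66 on the log2 scale (SE 0.253, adjusted p = 0.0396). This fall rested on single libraries, since the call was lost without cirrhosis replicate 1 (-0.589), healthy replicate 1 (-0.580) or healthy replicate 4 (-0.536), and with library size in place of TMM (-0.315).

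**Figure D2:**
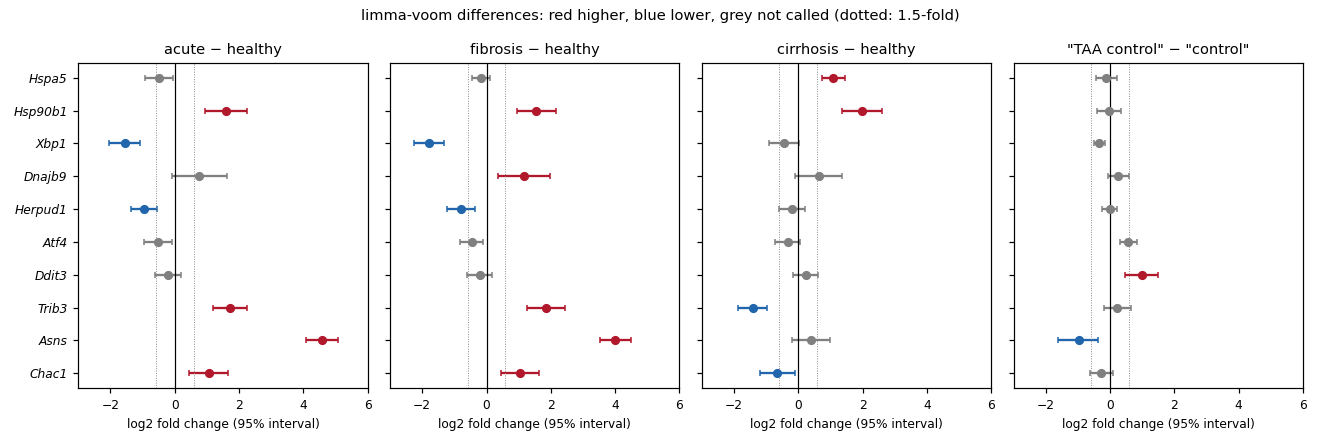
Log2 fold-change (x axis) with its 95% interval for the 10 genes (y axis) in the 3 comparisons with healthy LSECs and in the TAA experiment, from limma-voom; red is called higher, blue lower, grey not called, and the dotted lines mark a 1.5-fold change. Asns is the furthest from 0 in acute injury (4.57) and fibrosis (16-fold), and Hsp90b1 in cirrhosis (1.98).

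Between acute injury and fibrosis none of the 10 members was called by limma-voom, edgeR or DESeq2, where 15.7% of 13931 genes were called (14.3% higher and 1.39% lower in fibrosis). At an unadjusted p-value under 0.05 alone there were 2, both with an adjusted p under 0.05. Asns was lower in every fibrosis library than in any acute one, but its log2 difference of -0.52 ± 0.104 (adjusted p = 0.00934) was under the threshold, which it passed without acute replicate 2 (-0.594). Dnajb9 differed by 0.46 ± 0.139 (adjusted p = 0.0402). The members' median log2 difference was 0.08, against 0.00 over all genes.

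Cirrhosis differed from both earlier stages in 6 members: Hspa5, Xbp1 and Herpud1 were higher, and Asns, Trib3 and Chac1 lower. Hspa5 was 3.06-fold higher in cirrhosis than in acute injury (adjusted p = 7.87e-06) and 2.48-fold higher than in fibrosis (adjusted p = 2.74e-06). Xbp1 was 2.24-fold (adjusted p = 2.62e-07) and 2.68-fold higher (adjusted p = 1.98e-08), and Herpud1 1.72-fold (adjusted p = 1.12e-05) and 1.56-fold higher (adjusted p = 0.000417). In the other direction, Asns was 17.7-fold lower than in acute injury (adjusted p = 9.74e-10) and 11.7-fold lower than in fibrosis (adjusted p = 6.07e-09). Trib3 was 8.64-fold and 9.23-fold lower (adjusted p = 9.87e-08 and 5.19e-07), and Chac1 3.22-fold and 3.12-fold lower (adjusted p = 6.15e-06 and 6.91e-06). For all 6 genes the cirrhotic libraries did not overlap with those of either earlier stage. The share of all genes without overlap was not counted, so this separation may be common. In each comparison 3 members were higher and 3 lower. Against acute injury 69.7% of 15005 genes were called (37.8% higher, 31.9% lower), and against fibrosis 64.2% of 15186 (34.5% higher, 29.7% lower). The members' median log2 differences were 0.32 and 0.33, and those of all genes 0.04 and 0.04. Ddit3 was also higher in cirrhosis, by 0.47 ± 0.106 and 0.50 ± 0.105 on the log2 scale (adjusted p = 0.00118 and 0.00086), but below 1.5-fold. The 2 comparisons share the cirrhotic libraries. Herpud1 lost its call against fibrosis without fibrosis replicate 15 (0.565) and with library size in place of TMM (0.536), and Hsp90b1, at 0.48 ± 0.194 (adjusted p = 0.0383), passed without cirrhosis replicate 2 (0.630).

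Other genes of the pathways were examined in 8 lists. Srprb, Cth and Bbc3 of these lists were not matched by symbol. Mainly the largest changes of a list at each stage are named, so a gene may also have been called at stages not given for it. Each list's counts stand beside the share called over all genes tested, which was 74.1% in acute injury, 71.2% in fibrosis and 54.5% in cirrhosis. The 12 aminoacyl-tRNA synthetases listed, which charge tRNAs with amino acids, went furthest in one direction. The list is not the whole family, as Vars is not on it. All 12 were called higher in acute injury, with log2 fold-changes of 1.02 to 3.53 and a median of 2.58. All 12 were also higher in fibrosis, at 0.72 to 3.26 (median 2.45), a count that was 11 to 12 when single libraries were left out. Iars rose 11.5-fold in acute injury (31.1 to 340 CPM on average, adjusted p = 1.1e-08) and Eprs 10-fold (88.9 to 846 CPM, adjusted p = 2.32e-08). In fibrosis they rose 9.58-fold (adjusted p = 2.25e-08) and 9.29-fold (adjusted p = 2.74e-08). In cirrhosis 6 were higher and 1 lower, with a median of 0.37. Wars rose 2.71-fold (adjusted p = 0.00112) and Iars 1.87-fold (adjusted p = 0.00124), and Sars fell 1.88-fold (adjusted p = 0.00207). Against acute injury all 12 were lower in cirrhosis (median -2.11), and against fibrosis 11 were (median -1.82). Of all genes tested, 69.7% were called in the first of these comparisons (31.9% lower) and 64.2% in the second (29.7% lower). CARE occurred in the promoter windows of 7 of the 11 listed synthetases matched by symbol (63.6%), and of 3 of the 10 members, beside 3.98% of all windows. Its share in synthetases outside the list was not counted.

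Enzymes and transporters of amino acid supply associated with ATF4 were called in part. Of 10 tested, 6 rose in acute injury and 7 in fibrosis, none fell, and the medians were 2.30 and 2.29; in cirrhosis 1 rose and 3 fell, with a median of -0.25. These are 60%, 70% and 40% of the list, each below the share of all genes called (74.1%, 71.2% and 54.5%), and over all genes 35.8% were higher in acute injury and in fibrosis. With library size in place of TMM the cirrhosis count was 2 and 2, and without healthy replicate 5 it was 1 and 5. Slc7a11, the cystine transporter, was near 0 in healthy LSECs (0.584 CPM on average) and averaged 86.6 CPM in acute injury (adjusted p = 1.48e-08), 191 in fibrosis (adjusted p = 4.7e-09) and 1.53 in cirrhosis (adjusted p = 0.0357). It was called higher at all 3 stages, but it met the level required of named genes only in fibrosis, through the libraries where it was high. The call in cirrhosis compares levels near 0. Psph, the last enzyme of serine synthesis, rose 5.79-fold in acute injury (adjusted p = 4.5e-07) and 5.57-fold in fibrosis (adjusted p = 1.19e-06). It averaged 6.88 CPM in healthy LSECs, 37.2 in acute injury and 35.3 in fibrosis. Thus Psph, too, met the level required of named genes only through the libraries where it was high. Mthfd2, a mitochondrial enzyme of folate metabolism, rose 4.2-fold in acute injury (adjusted p = 9.38e-06). It was also called higher in fibrosis (log2 fold-change 2.10, adjusted p = 7.24e-06). Slc3a2, the heavy chain of several amino acid transporters, fell 1.94-fold in cirrhosis (adjusted p = 0.000748). CARE was found in 1 of 11 windows of this list.

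The stress sensors and eIF2alpha kinases are a short list. Of 6, there were 4 called higher and 1 lower in acute injury and in fibrosis, and 4 higher in cirrhosis, with medians of 1.10, 1.17 and 0.83. The shares called were 83.3%, 83.3% and 66.7%, beside 74.1%, 71.2% and 54.5% of all genes, and the 1 lower gene in fibrosis, Eif2ak2, had an adjusted p of 0.0564. Eif2ak3 (PERK) rose 2.32-fold, 2.9-fold and 2.02-fold (adjusted p = 0.000385, 5.02e-05 and 0.0013). Eif2ak4 (GCN2) rose 2.28-fold in acute injury (adjusted p = 0.000387) and 1.77-fold in cirrhosis (adjusted p = 0.00415), and Atf6 rose 2.67-fold in fibrosis (adjusted p = 0.000121). Eif2ak4 was also called higher in fibrosis (log2 fold-change 1.05, adjusted p = 0.00117). Atf6 was also called higher in acute injury (1.30, adjusted p = 0.000378) and cirrhosis (0.83, adjusted p = 0.0127).

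ISR transcription factors and feedback genes were divided. Of 12, acute injury had 6 higher and 5 lower, fibrosis 6 and 4, and cirrhosis 4 and 6, or 91.7%, 83.3% and 83.3% of the list beside 74.1%, 71.2% and 54.5% of all genes. In cirrhosis the 4 higher became 2 without cirrhosis replicate 4, and the counts became 4 and 4 with library size in place of TMM. Eif2s1, which encodes eIF2alpha itself, rose 5.88-fold in acute injury (adjusted p = 1.84e-05) and 5.11-fold in fibrosis (adjusted p = 4.27e-05), and Cebpg, a partner of ATF4, 4.02-fold (adjusted p = 1.37e-06) and 3.29-fold (adjusted p = 5.51e-06). Atf3, which is also an immediate-early gene, fell 22.9-fold in acute injury (2892 to 150 CPM, adjusted p = 1.46e-06) and 7.6-fold in fibrosis (adjusted p = 1.01e-06). Ppp1r15a (GADD34), the subunit that directs a phosphatase to eIF2alpha, fell 2.87-fold, 2.19-fold and 2.09-fold from acute injury to cirrhosis (adjusted p = 0.000127, 0.000152 and 0.00106). In cirrhosis Cebpb fell 2.14-fold (adjusted p = 0.00269), and Ppp1r15b, the constitutive counterpart of Ppp1r15a, rose 1.73-fold (adjusted p = 0.00282). Cebpb was also called lower in acute injury (log2 fold-change -1.11) and fibrosis (-0.91), and Ppp1r15b higher (1.54 and 1.45). The falls of Atf3 and Ppp1r15a ran beside those of the immediate-early and dissociation genes, of which 12 of 13 were lower in acute injury (median -5.46), 12 lower and 1 higher in fibrosis (median -4.87), and 6 lower and 1 higher in cirrhosis (median -0.49). The part of cell isolation in these levels was not tested.

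**Figure D3:**
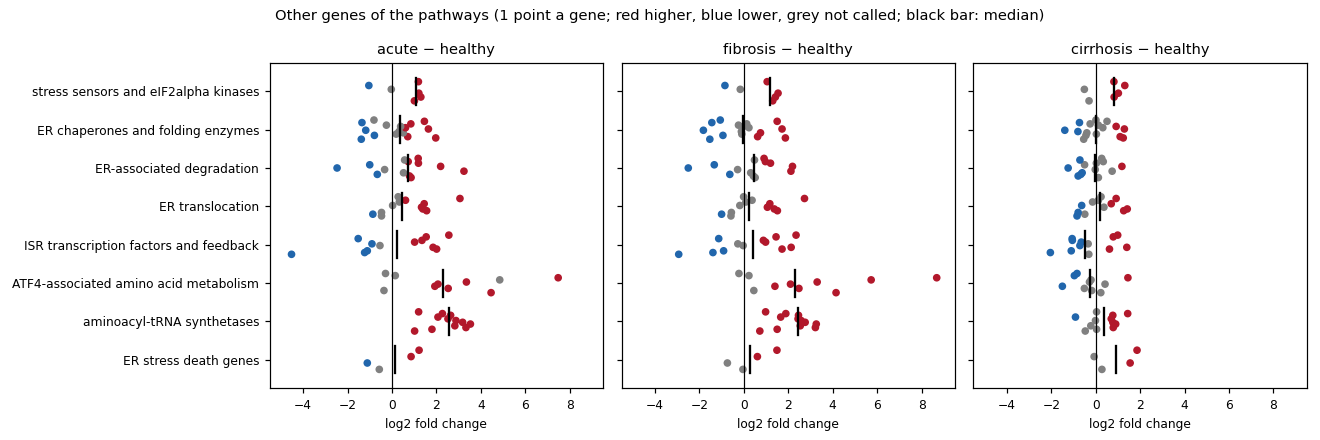
Log2 fold-change against healthy LSECs (x axis) of each gene tested (points) in the 8 pathway lists (y axis) at the 3 stages; red is called higher, blue lower, grey not called, and the black bar is the list's median. The aminoacyl-tRNA synthetases lie to the right of 0 in acute injury (median 2.58) and fibrosis (median 2.45) and around 0.37 in cirrhosis, while the ER chaperones lie on both sides in all 3.

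The genes that act inside the ER did not move in one direction. Among 16 chaperones and folding enzymes, 6 were higher and 4 lower in acute injury, 5 and 5 in fibrosis, and 4 and 3 in cirrhosis, with medians of 0.36, -0.05 and 0.02. The shares called, 62.5%, 62.5% and 43.8%, were below those of all genes (74.1%, 71.2% and 54.5%). Canx (calnexin, a membrane-bound lectin chaperone) rose 3.93-fold, 3.65-fold and 2.37-fold (adjusted p = 2.56e-05, 4.12e-05 and 0.000882), and Dnajc3 (p58IPK) 3.12-fold, 3.29-fold and 2.44-fold (adjusted p = 4.33e-05, 2.4e-05 and 0.000248). Calr (calreticulin, the soluble lectin chaperone) fell 2.6-fold in acute injury (adjusted p = 1.97e-05) and 2.89-fold in fibrosis (adjusted p = 3.25e-06), and Ppib (cyclophilin B) 2.55-fold in acute injury (adjusted p = 4.12e-05). Ppib was also called lower in fibrosis (log2 fold-change -1.44, adjusted p = 1.38e-05) and cirrhosis (-0.73, adjusted p = 0.00469). Sdf2l1 fell 3.53-fold in fibrosis (adjusted p = 0.00042) and 2.61-fold in cirrhosis (adjusted p = 0.00249), and Hyou1, the ER HSP110 protein, 1.74-fold in cirrhosis (adjusted p = 0.00346). Sdf2l1 was also called lower in acute injury (log2 fold-change -1.18, adjusted p = 0.00927). Beside the rise of Hspa5 and Hsp90b1 in cirrhosis, other ER chaperones thus rose (Canx, Dnajc3) or fell (Sdf2l1, Hyou1). ERSE was found in 5 of 13 windows of this list.

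ER-associated degradation genes numbered 7 higher and 3 lower of 13 in acute injury, 5 and 3 in fibrosis, and 1 and 5 in cirrhosis, with medians of 0.73, 0.48 and -0.02. That is 76.9%, 61.5% and 46.2% of the list, where 74.1%, 71.2% and 54.5% of all genes were called. Edem3, a mannosidase that marks misfolded glycoproteins, rose 4.56-fold in acute injury and in fibrosis (adjusted p = 3.41e-05 and 4.04e-05), and Vcp (p97, the ATPase that extracts them) 2.29-fold in each (adjusted p = 1.69e-05 and 1.26e-05). The related Edem2 fell 5.56-fold, 5.67-fold and 2.36-fold (adjusted p = 1.45e-06, 8.17e-08 and 0.000165), Os9 2-fold and 2.51-fold in the first 2 stages (adjusted p = 6.79e-05 and 3.41e-06), and Syvn1 (HRD1, the ubiquitin ligase) 1.72-fold in cirrhosis (adjusted p = 0.00322). Syvn1 was called higher in acute injury (log2 fold-change 0.79, adjusted p = 0.00168), and Edem3 also in cirrhosis (1.18, adjusted p = 0.00508). With library size in place of TMM the counts were 9 higher and 2 lower in acute injury, 9 and 2 in fibrosis and 3 and 1 in cirrhosis.

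Of 12 translocation genes, 6 were higher and 1 lower in acute injury, 5 and 1 in fibrosis, and 4 and 3 in cirrhosis, with medians of 0.47, 0.23 and 0.18. Beside 74.1%, 71.2% and 54.5% of all genes, 58.3%, 50% and 58.3% of this list were called. With library size in place of TMM the counts were 8 and 0, 6 and 1, and 6 and 0, and without healthy replicate 5 or 6 there were 3 lower in fibrosis. Spcs3 of the signal peptidase rose 8.36-fold in acute injury and 6.63-fold in fibrosis (adjusted p = 1.3e-05 and 4.03e-05). Sec62 rose 2.95-fold and 2.85-fold (adjusted p = 0.000817 and 0.00115), while the channel subunit Sec61b fell 1.81-fold and 2-fold (adjusted p = 0.00126 and 8.22e-05). In cirrhosis Sec63 rose 2.67-fold (adjusted p = 0.00216), and Sec61a1 and Sec61g fell 1.79-fold and 1.73-fold (adjusted p = 0.00169 and 0.00127). Sec63 was also called higher in acute injury (log2 fold-change 1.39) and fibrosis (1.37), and Sec62 (1.26) and Spcs3 (0.92) also in cirrhosis. Of 4 ER stress death genes tested, 2 were higher and 1 lower in acute injury, 2 higher in fibrosis and 2 higher in cirrhosis, with medians of 0.14, 0.29 and 0.92. The shares called were 75%, 50% and 50%, beside 74.1%, 71.2% and 54.5% of all genes. Pmaip1 (NOXA, a BH3-only protein) rose 2.94-fold in cirrhosis (adjusted p = 0.00179). It was called lower in acute injury (log2 fold-change -1.11, adjusted p = 0.0165).

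The levels of all genes against healthy LSECs depend on the scaling. With library size in place of TMM, the median log2 fold-change over all genes was 0.323 in acute injury, 0.367 in fibrosis and 0.416 in cirrhosis, and the share of called genes that were higher went from 48.3% to 58% in acute injury, from 50.3% to 60.7% in fibrosis and from 52.8% to 71.2% in cirrhosis. Under that scaling the synthetases were still 12 of 12 higher in acute injury and fibrosis, and the ER chaperones were 10 higher and 3 lower, 6 and 3, and 6 and 1.

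In the TAA experiment 2 of the 10 members differed between the groups, where 29.4% of 14376 genes were called, 13.5% higher and 15.9% lower in the libraries labelled TAA control. The members' median log2 difference (TAA control minus control, as labelled) was -0.02, against 0.03 over all genes. Ddit3 was 1.97-fold higher in the libraries labelled TAA control, and Asns 1.98-fold lower. Hspa5, Hsp90b1, Xbp1, Herpud1, Trib3, Chac1 and Asns were called in cirrhosis against healthy, acute or fibrosis LSECs in the CCl4 model. Of these only Asns was called here. Against healthy LSECs alone, Hspa5, Hsp90b1, Trib3 and Chac1 were called in cirrhosis, and none of them was called here. Asns was called in cirrhosis only against acute injury and fibrosis, comparisons without a counterpart in the TAA experiment. The 2 experiments were not tested against each other.

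Ddit3 was at 55.5, 46.2, 110, 62.1 and 54.6 CPM in the libraries labelled control and at 108, 101, 102, 159 and 160 in those labelled TAA control. Apart from control replicate 3, at 110 CPM, the groups did not overlap, and the log2 difference was 0.98 ± 0.231 (adjusted p = 0.00495). Atf4 was at 1339, 1223, 1476, 1409 and 1286 CPM against 1659, 1739, 1827, 2408 and 2410. All 5 libraries labelled TAA control were above the others, but the difference of 0.56 ± 0.121 (adjusted p = 0.00301) was below 1.5-fold; it passed without control replicate 3 (0.593) and without TAA control replicate 10, 12 or 13 (0.630, 0.613 and 0.596). Replicates 14 and 15, the highest for both genes, resembled each other more than 2 libraries of one group did elsewhere, with a chi-square per degree of freedom of 3.05 over genes. Counted as 1 library, they left the same number of members called, 2. The p-values printed for the TAA experiment count them as separate libraries, and whether they came from 1 rat was not tested.

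Asns was at 7.37, 6.87, 6.2, 15.2 and 11.6 CPM in the libraries labelled control and at 4.99, 3.8, 3.32, 5.65 and 5.66 in those labelled TAA control. The groups did not overlap, with a log2 difference of -0.98 ± 0.284 (adjusted p = 0.0145). Xbp1, at 187 to 225 CPM against 142 to 181, was also lower in all libraries labelled TAA control, by 0.33 on the log2 scale (log2 difference -0.33 ± 0.0825, adjusted p = 0.00703), a change under the threshold. Hspa5 was at 1517 to 2881 against 1641 to 1995 CPM, Hsp90b1 at 722 to 1325 against 844 to 1181, Herpud1 at 101 to 148 against 121 to 140, Dnajb9 at 86.3 to 149 against 126 to 148, Trib3 at 5.74 to 10.9 against 7.81 to 12.7, and Chac1 at 19.5 to 38 against 19 to 23.4. These 6 overlapped and did not pass the test; the 95% intervals of their log2 differences ran from -0.62 at the lowest to 0.64 at the highest.

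Among the pathway lists, 4 of 12 synthetases (33.3%, beside 29.4% of all genes) were lower in the libraries labelled TAA control (median -0.32). Cars was 2.28-fold (adjusted p = 0.00201) and Tars 1.73-fold (adjusted p = 0.00212) lower. Of the ISR factors, 3 of 12 (25%) were higher, among them Gdf15, a secreted stress cytokine, 3.18-fold (adjusted p = 0.00117) and Atf3 2.93-fold (adjusted p = 0.000587). In the other lists 1 of 16 chaperones (6.25%), 1 of 6 sensors and kinases (16.7%) and 1 of 9 ATF4-associated genes (11.1%) were called. So were 2 of 4 death genes (50%), but no degradation or translocation gene. Atf6 was 3.07-fold lower (adjusted p = 0.000562), Tnfrsf10b (a TRAIL receptor) 2.14-fold lower (adjusted p = 0.00275) and Ero1b, an ER oxidase, 2.14-fold higher (adjusted p = 0.000168). The immediate-early and dissociation genes were higher for 12 of 13, and their sum was 13566 to 28503 CPM in the libraries labelled control and 45671 to 66526 in the others. The LSEC marker sums were 21252 to 26524 and 25356 to 33745 CPM, those of stellate cell and fibroblast markers 1700 to 4677 and 205 to 305, and those of hepatocyte markers 1522 to 4145 and 451 to 1096. The part of these differences in the values of Ddit3, Atf4 and Asns was not tested.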

How the data were processed

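The authors isolated LSECs on an iodixanol gradient, prepared strand-specific poly(A) libraries, used STAR for mapping to Rnor_6.0 and RSEM for quantification; versions are not given in the sources used here. The deposited values are RSEM's expected counts, which can be fractional, per library, not normalized. They were rounded and analysed with DESeq2 1.42.0, edgeR 4.0.16 and limma 3.58.1 under R 4.3.3, and tables and figures were made with Python 3.11.15, pandas 2.3.3 and matplotlib 3.10.9. The test was limma-voom with TMM factors and filterByExpr (minimum count 10, minimum total 15), each fit holding only the 2 groups compared, with no covariate, and Benjamini-Hochberg adjusted p-values over all genes tested. For likeness, log2(CPM + 0.5) was used. The pipeline was tested on simulated data. Groups and replicate numbers come from the labels, and each library is from a separate rat as far as these say; p-values measure the spread between these libraries. The depth of 25646531 to 46464289 counts per library put at least 101 counts on each member in each library. The members and lists were chosen with earlier results of these data known. All 10 members are named; of each list, at most the 2 largest rises and 2 largest falls with the call, an adjusted p under 0.05, no overlap between libraries and an average log2 CPM of 3 or more are named for each comparison with healthy LSECs and for the TAA experiment. Fold-changes are from the fit, and levels are CPM computed from the deposited counts. Alternatives were adjusted p-values in the call, edgeR, DESeq2, DESeq2's size factors, library size alone, other low-count filters, 1 fit over the 4 CCl4 groups, leaving out each library, and a block for the replicate number; counting 2 near-identical TAA-experiment libraries as 1 was added after the data were seen. Genes whose reads RSEM divided between several genes are less certain. Gene positions in Rnor_6.0 and protein sequences were not used here.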

Additional observations from a re-analysis of the deposited data

Results flagged for a closer look

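In 5 of 60 groups of values, 1 library stood apart from the others by Dixon's criterion, where about 3 would by chance. Within cirrhosis, replicate 2 had the lowest Xbp1 (207 CPM, the others 255 to 288) and the lowest Ddit3 (125 CPM, the others 162 to 186), and it had the lowest level of 5 of the 10 members in its group. Replicate 6 had the lowest Dnajb9 of the cirrhotic libraries (74 CPM, the others 100 to 109) and the highest level of 5 other members, Hspa5 and Hsp90b1 included. In the libraries labelled TAA control, replicate 10 had the highest Hsp90b1 (1181 CPM, the others 844 to 899) and the lowest Dnajb9 (126 CPM, the others 144 to 148). What set these libraries apart was not tested.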

How the results depend on the processing

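The number of members called was 6 to 9 of 10 in acute injury, 6 to 7 in fibrosis and 3 to 5 in cirrhosis against healthy LSECs, 6 for cirrhosis against acute injury, 5 to 7 against fibrosis and 2 to 3 in the TAA experiment, over all alternatives. Between fibrosis and acute injury the number of members called was 0, but 1 (Asns, -0.601) with 1 fit over the 4 groups, and 0 to 1 with single libraries left out. With library size in place of TMM the log2 difference from healthy LSECs changed sign for Ddit3 in acute injury (0.198) and fibrosis (0.185), Hspa5 in fibrosis (0.230), and Herpud1 (0.143) and Atf4 (0.016) in cirrhosis, while Dnajb9 became called in acute injury (1.167) and cirrhosis (0.978), as did Asns in cirrhosis (0.739). None of the 5 that changed sign was called in either setting. Between fibrosis and acute injury, differences near 0 changed sign: Hsp90b1 with edgeR (-0.004), DESeq2 (-0.010), library size (-0.043), no low-count filter (-0.001) and 1 fit (-0.062), Ddit3 with library size (-0.013) and 1 fit (-0.031), and Chac1 likewise (-0.034 and -0.053). With single libraries left out they ran from -0.073 to 0.124 for Hsp90b1, -0.007 to 0.091 for Ddit3 and -0.101 to 0.166 for Chac1, as did Dnajb9 between cirrhosis and acute injury from -0.208 to 0.011, and in the TAA experiment Hspa5 from -0.218 to 0.011, Hsp90b1 from -0.138 to 0.081 and Herpud1 from -0.104 to 0.031. The cause was not tested. Replicate numbers shared by the labels of healthy, acute and cirrhotic libraries did not pair them: correlations of same-numbered deviations ran from -0.220 to 0.250, and not every sample correlated best with its own number. With the replicate block 9 members were called in acute injury against 6 without it, Hspa5 (-0.591), Atf4 (-0.625) and Dnajb9 (1.153) being added, 4 in cirrhosis and 6 between cirrhosis and acute injury, where Dnajb9 changed sign (0.109). Of all 14317 genes tested in acute injury, 11000 were called with the block and 10611 without it. The groups of 5 or 6 rats limit what these tests can show, and gene-level counts do not show Xbp1 splicing, eIF2alpha phosphorylation or protein levels.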

Other observations

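The genes whose pattern over the 22 CCl4-model libraries was most like that of a member were sought among 8646 genes, by the root-mean-square difference of log2 CPM after each gene's own mean was subtracted; all libraries are shared, so this is a description. Nearest to Asns was Mthfd1l, a mitochondrial enzyme of folate metabolism (0.240), followed by Aen (0.374). Nearest to Trib3 were Eif4ebp1, an inhibitor of cap-dependent translation (0.339), and Vars, the valyl-tRNA synthetase (0.393), which was in none of the lists. Nearest to Chac1 were Gdf15 (0.309) and Vdac1 (0.348). The member nearest to Asns was Trib3 (1.111), further than either of those genes, and for Trib3 and Chac1 it was the other of this pair (0.666). Among the ER genes, Hspa5 was nearest to Ptprg (0.331) and Gng2 (0.336), Hsp90b1 to Golim4 (0.377) and Brwd3 (0.380), Dnajb9 to Rasal2 (0.212) and Zfhx3 (0.231), Xbp1 to Camta2 (0.233) and Ppp1r11 (0.235), and Herpud1 to Mtmr4 (0.200) and Cnpy2 (0.241). Atf4 was nearest to Ctif (0.171) and Map3k12 (0.182), and Ddit3 to Prdm4 (0.163) and Serinc3 (0.166); of the members, Atf4 and Ddit3 were nearest to each other (0.306).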
